A study of Mus musculus with 11 samples.

Results

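The genes described here mark T, B and NK lymphocytes. They were taken from a list of 38 gene symbols, and 36 of the 38 had a row with a single gene symbol in the expression table, out of 23185 such genes. The other 2 were not analysed here. Of the 36, 20 mark T cells, 6 mark B cells and 10 mark NK and other cytotoxic cells. The rule uses gene names and no measured value.

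The study profiled mouse liver cells sorted on yellow fluorescent protein (YFP), in a series whose title concerns liver progenitor cells arising from the biliary epithelium. What the YFP label marks is not defined in the sample labels. RNA was hybridised to MoGene ST 2.0 arrays, 11 in all. Sorted YFP+ cells came from mice on the CDE diet (3 arrays), mice on the DDC diet (3 arrays) and untreated mice, labelled UTR (2 arrays), and both diets are used to injure mouse liver. YFP- cells from untreated mice made the fourth group (3 arrays). All were sorted from the non-parenchymal pellet of digested liver with dead cells gated out. The protocol given with every sample describes the DDC diet, fed for 5 weeks to 4 mice, and the time on the CDE diet is not given in the sources used here. Neither are the strain, the age and the driver of the YFP label. The sample titles call all 11 samples liver progenitor cells, the YFP- samples included. The labels do not tie replicates to different animals. The p-values below therefore reflect only how far arrays of a group scatter, and this scatter may be technical.

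A T cell recognises antigen through a T cell receptor whose signal is carried by the CD3 chains, and a B cell through surface immunoglobulin paired with the CD79 chains. NK cells carry no such receptor and kill with perforin and granzymes under the control of activating and inhibitory receptors, many of them shared with cytotoxic T cells. Mouse liver holds all these cells, in the sinusoids and in passing blood, so a non-parenchymal pellet can contain them.

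The sort labels were first set against marker genes of other liver cells. All 8 measured biliary markers were higher in UTR than in YFP- cells; Krt19, a keratin of bile ducts, read 10.11 to 10.64 over the 8 YFP+ arrays and 8.28, 4.64 and 4.65 on YFP- replicates 1, 2 and 3. The 3 YFP- arrays stood apart from each other, with pairwise correlations of 0.89 to 0.93 across genes, against at least 0.98 between any pair of YFP+ arrays. The array medians lay between 5.63 and 5.77 on the deposited log2 scale, on which 1 unit is a factor of 2. Because the YFP- arrays differ in this way, each is described by itself before any group test.

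YFP- replicate 2 carried the lymphocyte genes. It was the highest of the 3 YFP- arrays for 36 of 36 genes, where it was the highest for 33.3% of all genes. It lay above all 8 YFP+ arrays for 35 of 36, against 29.4% of all genes. Relative to the mean of the 2 UTR arrays, 34 of the 36 genes were over 1 log2 unit higher on it (11.6% of all genes), 26 were over 3 units higher (3.25%) and 16 were over 5 units higher. The median difference was 4.57 for T cell genes, 4.46 for B cell genes and 5.67 for NK cell genes, which are factors of 23.7, 22.0 and 50.8. Over all genes the median on this array was -0.0044. A single array set against a mean has no test, so these differences are descriptions.

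By the median of each class, YFP- replicates 1 and 3 were near the UTR level. Replicate 1 had a median difference from UTR of -0.09 for T, 0.26 for B and 0.07 for NK cell genes, and 4 of 36 genes were over 1 unit higher (8.12% of all genes) and 0 over 3 units (1.7%). Replicate 3 had medians of -0.08, 0.21 and 0.13, and again 4 of 36 were over 1 unit higher (9.86% of all genes), with 3 over 3 units (2.41%). Replicate 1 lay above all 8 YFP+ arrays for 12 of 36 (23.5% of all genes) and replicate 3 for 14 of 36 (30%). By class, these were 6 of 20 T, 2 of 6 B and 4 of 10 NK cell genes on replicate 1. On replicate 3 they were 4 of 20 T, 5 of 6 B and 5 of 10 NK cell genes. For 18 of the 36 genes both arrays lay within or below the range of the 8 YFP+ arrays: 12 of 20 T, 1 of 6 B and 5 of 10 NK cell genes. The share of all genes that do so was not counted, so this count cannot be read as particular to the lymphocyte genes. In bulk RNA such as this, fewer cells of a type and less RNA per cell cannot be told apart.

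**Figure D1:**
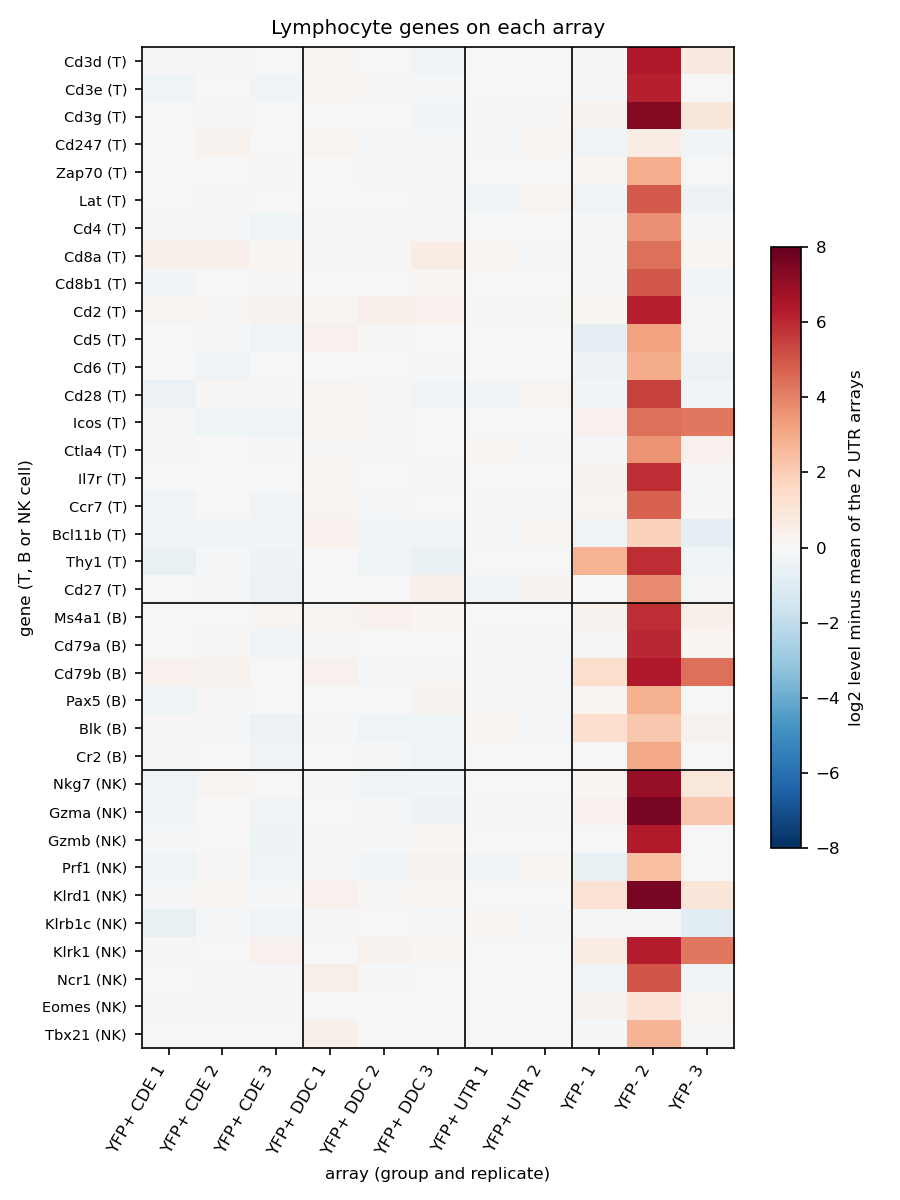
Heat map of the 36 measured lymphocyte genes (rows, by class) on the 11 arrays (columns, by group). Colour is the log2 value minus the mean of the 2 UTR arrays; only the YFP- replicate 2 column is raised for nearly all rows, by up to 7.59.

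**Figure D2:**
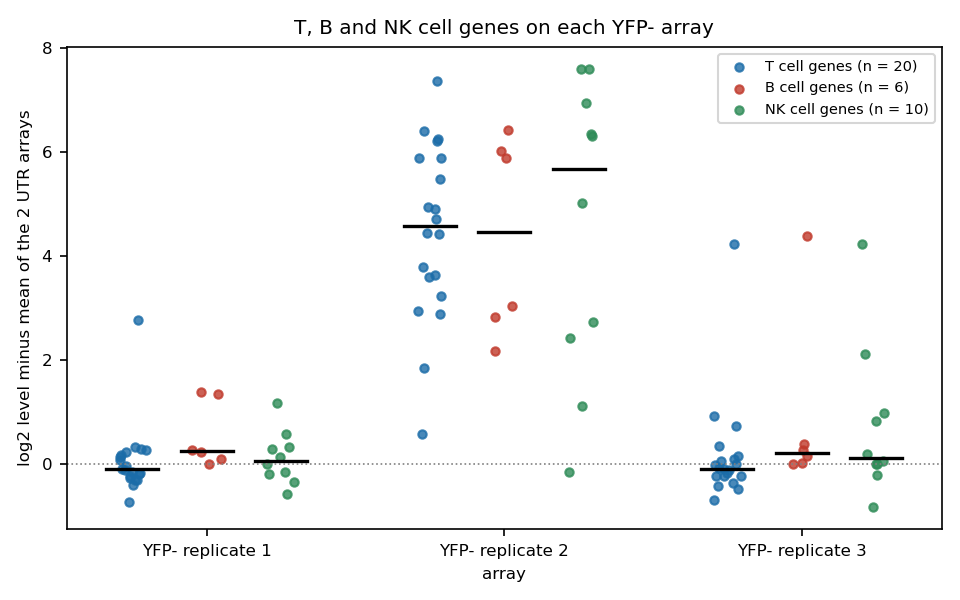
Each point is 1 gene, plotted as the log2 value on 1 YFP- array minus the UTR mean, by class and replicate, with the median as a bar. Medians on replicate 2 are 4.57 (T), 4.46 (B) and 5.67 (NK), and lie between -0.09 and 0.26 on replicates 1 and 3.

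Among T cell genes, the chains of the receptor complex showed the pattern most plainly. Cd3e, a signalling chain of the T cell receptor, read 4.20, 4.53 and 4.31 on the CDE arrays, 4.76, 4.65 and 4.34 on the DDC arrays, 4.53 and 4.53 on the UTR arrays and 4.43, 10.73 and 4.53 on YFP- replicates 1, 2 and 3. Only YFP- replicate 2 stood out, and the other 10 arrays overlapped. Cd3d, its partner chain, lay at 4.54 to 5.07 on the YFP+ arrays and at 4.93, 11.25 and 5.58 on the YFP- arrays. Cd3g, the remaining CD3 chain, was at 3.62 to 3.90 and at 4.12, 11.18 and 4.75. Cd3g thus had all 3 YFP- values above the YFP+ range, with a gap of 0.22. The zeta chain Cd247 departed from its partners, with 6.15 to 6.62 on YFP+ arrays and 6.03, 6.90 and 6.10 on YFP- arrays, so that replicate 2 was only 0.57 above the UTR mean.

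The kinase Zap70, which binds the phosphorylated receptor chains, read 4.71 to 4.89 on YFP+ arrays and 4.92, 7.67 and 4.77 on YFP- arrays. Lat, the membrane adaptor that Zap70 phosphorylates, read 6.10 to 6.48 and 6.02, 11.19 and 5.88. Both were high on replicate 2 alone. The co-receptors behaved alike: Cd4, which binds MHC class II, had YFP- values of 4.55, 8.32 and 4.61. Cd8a and Cd8b1, the chains of the receptor for MHC class I, had 3.95, 8.45 and 4.20 and 4.07, 9.20 and 4.03. Genes of helper and of cytotoxic T cells were therefore both high on the same array, and neither was on the other YFP- arrays.

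Of the adhesion and costimulatory receptors, Cd2, Cd5, Cd6, Cd28, Ctla4 and Cd27 were also high on replicate 2 alone. Cd28, the main costimulatory receptor, had YFP- values of 4.63, 10.34 and 4.63, and the inhibitory receptor Ctla4 had 4.09, 7.85 and 4.60. The adhesion receptor Cd2 had 4.64, 10.70 and 4.53, and the modulators Cd5 and Cd6 had 5.03, 8.97 and 5.57 and 4.91, 8.26 and 4.83. Cd27, a TNF receptor family member, had 5.01, 8.83 and 4.96. These 6 genes lay between 4.09 and 6.09 on every YFP+ array, Cd27 with the widest spread of any member there, 0.87. Icos, the inducible costimulator, was different, with 5.50, 5.29 and 5.26 on the CDE arrays, 5.82, 5.71 and 5.69 on the DDC arrays, 5.59 and 5.68 on the UTR arrays and 5.96, 10.07 and 9.85 on YFP- replicates 1, 2 and 3. Replicates 2 and 3 were both about 4 units above every YFP+ array, and replicate 1 was just above them, by 0.14.

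Il7r, the receptor for the survival cytokine interleukin 7, read 3.83, 9.42 and 3.45 on the YFP- arrays, and Ccr7, which guides naive cells to lymph nodes, read 6.43, 10.90 and 6.30. Bcl11b, a transcription factor of T cell commitment, reached only 6.88 on replicate 2, 1.84 above the UTR mean. Thy1, a surface protein of T cells that fibroblasts and some neurons also carry, read 5.49, 5.93 and 5.68 on the CDE arrays, 6.01, 5.68 and 5.52 on the DDC arrays, 6.09 and 6.01 on the UTR arrays and 8.83, 11.94 and 5.69 on YFP- replicates 1, 2 and 3. It was high on replicates 1 and 2 and at the YFP+ level on replicate 3, so that on replicate 1 it was 2.77 above the UTR mean while Cd3d, Cd3e and Cd2 were not raised.

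The B cell genes were also highest on replicate 2. Cd79b was more than 1 unit above the UTR mean on replicates 1 and 3 too, and Blk on replicate 1. Cd79a and Cd79b are the signalling chains of the B cell receptor. Cd79a had 3.83 to 4.20 on YFP+ arrays and 4.18, 10.11 and 4.24 on YFP- arrays. Cd79b read 5.16, 5.12 and 4.83 on the CDE arrays, 5.15, 4.68 and 4.93 on the DDC arrays, 4.94 and 4.70 on the UTR arrays and 6.20, 11.24 and 9.20 on YFP- replicates 1, 2 and 3. All 3 YFP- arrays were above every YFP+ array, by at least 1.04, and replicate 3 was 4.38 above the UTR mean while its partner Cd79a on the same array was not.

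Blk, a receptor-proximal kinase of B cells, had YFP- values of 6.05, 6.86 and 4.97 against 4.20 to 4.85 on YFP+ arrays, with no overlap and a smallest gap of 0.12. Ms4a1, which encodes CD20, had 3.77, 9.39 and 3.89, and the complement receptor Cr2 had 4.61, 7.64 and 4.63. Pax5, the transcription factor that fixes B cell identity, had 5.69, 8.27 and 5.47. For these 3, only replicate 2 lay more than 1 unit above the UTR mean.

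The NK and cytotoxic genes gave the largest differences on replicate 2. Gzma, a granule protease, read 3.52, 3.74 and 3.57 on the CDE arrays, 3.82, 3.59 and 3.33 on the DDC arrays, 3.89 and 3.64 on the UTR arrays and 4.10, 11.36 and 5.89 on YFP- replicates 1, 2 and 3. Replicate 2 was 7.59 above the UTR mean, the largest difference of the 36 genes, and replicate 3 was 2.13 above it. Gzmb, a second granule protease, had YFP- values of 3.91, 10.27 and 3.91, and the pore former Prf1 had 5.91, 8.91 and 6.50. Nkg7, a granule membrane protein, had 5.79, 12.59 and 6.48. All 4 granule genes were high on replicate 2, and Gzma alone was also more than 1 unit up on replicate 3.

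The receptors did not all follow. Klrd1 (CD94), a partner chain of lectin-like receptors, read 3.46, 3.77 and 3.52 on the CDE arrays, 3.93, 3.73 and 3.76 on the DDC arrays, 3.66 and 3.55 on the UTR arrays and 4.79, 11.19 and 4.60 on YFP- replicates 1, 2 and 3, so every YFP- array was above every YFP+ array by at least 0.66. Klrk1 (NKG2D), an activating receptor, read 3.74, 3.61 and 3.96 on the CDE arrays, 3.69, 3.90 and 3.81 on the DDC arrays, 3.65 and 3.63 on the UTR arrays and 4.23, 9.95 and 7.88 on YFP- replicates 1, 2 and 3. Here replicate 3 was also high, by 4.23 over the UTR mean. Ncr1 (NKp46), an activating receptor found on nearly all mouse NK cells, read 3.74, 9.09 and 3.86 on the YFP- arrays and was high on replicate 2 alone. Klrb1c, which encodes the NK1.1 antigen of some strains, was the one member not above the YFP+ arrays there, with 6.27 to 7.04 on YFP+ arrays and 6.71, 6.74 and 6.07 on YFP- arrays. Of the T-box factors of cytotoxic cells, Tbx21 had 5.55, 8.41 and 5.75 and Eomes 3.98, 4.81 and 3.89, and Eomes on replicate 2 was just 1.12 above the UTR mean.

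**Figure D3:**
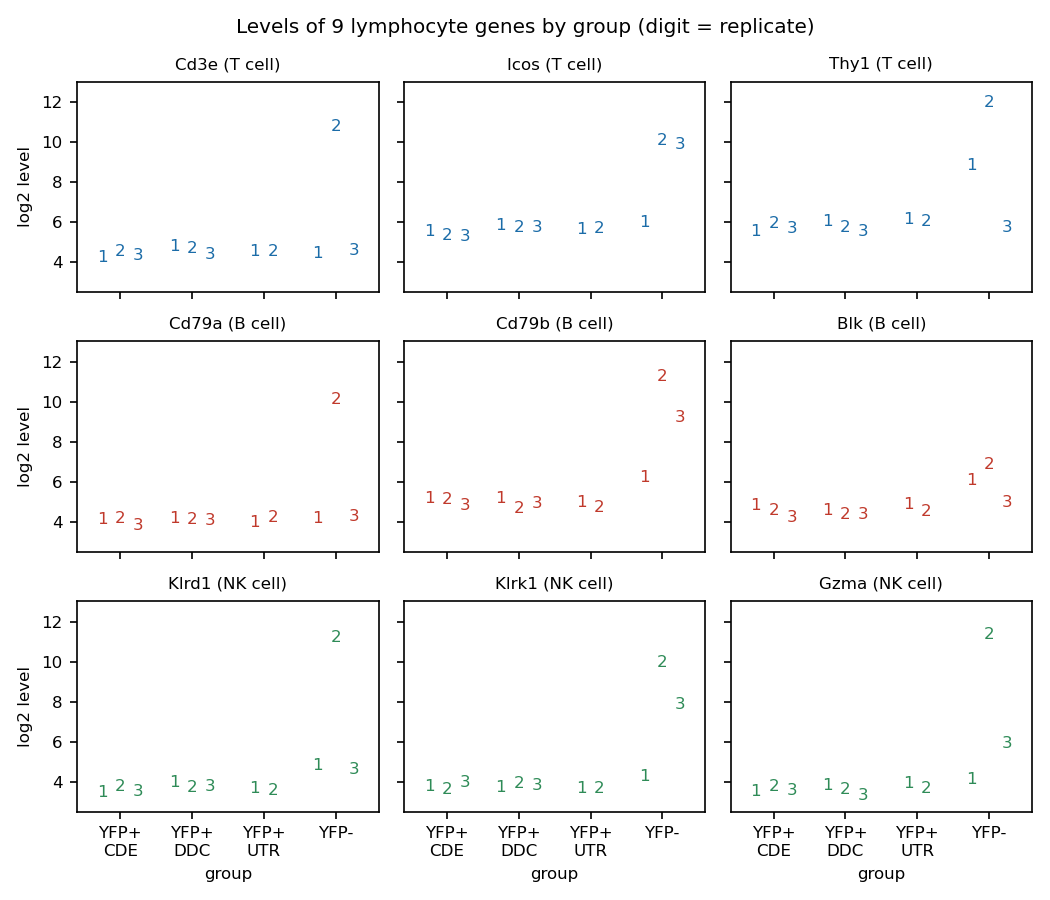
Log2 level of 9 lymphocyte genes (1 panel each) by group, where each digit is 1 array and gives its replicate number. Cd3e and Cd79a are high only on YFP- replicate 2 (10.73 and 10.11), Icos on replicates 2 and 3 (10.07 and 9.85) and Thy1 on replicates 1 and 2 (8.83 and 11.94).

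The promoters of the members were also searched for short motifs of lymphocyte transcription factors. RefSeq promoters (GRCm38.p6, 250 bases before to 50 after the start) were given for 24 of the 36 genes, 27 promoters in all. Both strands were searched for TGTGGTT (RUNX type), GGTGTGA (T-box type), CCGGAAG (ETS type) and the EBF type palindrome. The RUNX type letters were in 5 of 10 NK, 1 of 14 T cell and 0 of 3 B cell promoters, against 5.27% of 32851 promoters. By gene, these were 4 of 9 NK, 1 of 12 T cell and 0 of 3 B cell genes, as overlapping promoters of Ncr1 hold the same match. The T-box type was found in 1 of 10 NK promoters (3.98% of all promoters), and the EBF (0.904%) and ETS types (8.86%) in none of the 27. No member promoter held more than 1 of the 4 motifs. A match is a match of letters and not a binding site, and these arrays do not measure binding. The matched windows follow, 5′ to 3′ on the gene's strand with the motif in capitals; Gzma carries it on the opposite strand.
Gzma, chr13:113101014-113101043 (-): gagaagaacaaAACCACAtcctttgcactc
Gzmb, chr14:56262350-56262379 (-): gtgggttctgcTGTGGTTacttcatgattc
Klrk1, chr6:129623975-129624004 (-): gatagctgtgcTGTGGTTgtgtgggggttc
Ncr1, chr7:4337528-4337557 (+): tagatccaaaaTGTGGTTaaatgtgttatg
Il7r, chr15:9529855-9529884 (-): agttccctgtcTGTGGTTtagcaggcacag
Nkg7, chr7:43437114-43437143 (+): ggggtagggaaGGTGTGAgaagaatcagat

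The comparison of untreated YFP+ with YFP- cells asked which genes set the labelled cells apart from the other sorted cells. In a limma fit of all 11 arrays, 1 of 36 lymphocyte genes was called lower in UTR at an adjusted p under 0.05 (8.46% of all genes) and 0 higher (10.4%). The gene was Cd79b, at -4.06 ± 1.09 (log2 difference ± SE, adjusted p 0.0301). At an unadjusted p under 0.05 there were 4 of 36, and 7292 of all 23185 genes. The median difference was -1.51 over T, -1.68 over B and -1.80 over NK cell genes, against -0.01 over all genes. Large differences missed the threshold: Klrk1 was at -3.71 ± 1.24 (adjusted p 0.0687) and Cd3g at -2.86 ± 1.67 (adjusted p 0.283). The spread among the 3 YFP- arrays was wide, with a median SD of 2.58 over the members and 0.26 over all genes. Cd79b was not called without UTR replicate 1 (adjusted p 0.122), UTR replicate 2 (0.150) or YFP- replicate 3 (0.0687), and 0 of 36 were called in a limma fit of the 5 UTR and YFP- arrays alone (4.02% of all genes), where 1 of 36 and 4945 of all 23185 genes had an unadjusted p under 0.05.

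Setting the mean of the 3 YFP+ groups against YFP- uses more arrays. Here 6 of 36 genes were called lower in YFP+ cells (14.3% of all genes) and 0 higher (16.3%), with 2 from each class. Cd79b differed by -3.96 ± 0.82 (adjusted p 0.00552) and Blk by -1.41 ± 0.33 (adjusted p 0.0105). Icos differed by -3.05 ± 0.74 (adjusted p 0.0124) and Klrk1 by -3.62 ± 0.93 (adjusted p 0.0161). For each of these 4 a second YFP- array was also more than 1 unit above the UTR mean. The same held for Thy1, and for Gzma and Klrd1, which were not called. Thy1 (-2.99 ± 1.00, adjusted p 0.0497) and Eomes (-0.53 ± 0.18, adjusted p 0.0498) passed narrowly. Neither was called when any single YFP+ array or YFP- replicate 2 was left out (adjusted p 0.0734 to 0.124 for Thy1 and 0.0660 to 0.0982 for Eomes), and Thy1 was not called without YFP- replicate 1 (0.0925). The CD3 chains were not among the 6, although Cd3g was at -2.87 ± 1.25 (adjusted p 0.115). At 8 of 36 genes all 3 YFP- arrays lay above all 8 YFP+ arrays, against 11.7% of all genes: Cd3g, Icos, Cd79b, Blk, Gzma, Klrd1, Klrk1 and Eomes. The count was 14 without YFP- replicate 1 (18.2% of all genes), 8 without replicate 2 (15.3%) and 12 without replicate 3 (14.4%). Such a count can only stay or rise when an array is left out. Replicate 2 was the highest YFP- array for all 36 genes, so leaving it out had to return the same 8. These counts are therefore no check of the result.

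Leaving out single YFP- arrays changed which genes were called. Without replicate 2, the median difference between UTR and YFP- cells was -0.08 and 2 of 36 were lower in UTR, Cd79b and Klrd1 (9.53% of all genes), and 1 higher, Cd6 (11%). Against all YFP+ groups, 7 were lower without it (13.9% of all genes), namely Cd3g, Icos, Cd79b, Blk, Gzma, Klrd1 and Klrk1, and Cd6 was higher (15.6%). Cd6 had the opposite sign in all 11 arrays, at -0.75 ± 0.63 (adjusted p 0.402), and 0.38 ± 0.10 (adjusted p 0.0182) without replicate 2. Without it, 14 of 36 genes changed sign against UTR and 13 against all YFP+ groups, and Cd6 was the member called among them in each. Klrd1 then differed by -1.03 ± 0.12 (adjusted p 0.000285), a smaller difference with a narrower error than in all 11 arrays, where it was -3.19 ± 1.20 (adjusted p 0.0730). Without replicate 1, 4 of 36 were lower in UTR (12.5% of all genes), namely Icos, Cd79b, Gzma and Klrk1, with 0 higher (12.6%), and 11 of 36 were lower in YFP+ cells (17%) with 0 higher (16.6%). Without replicate 3, Thy1 (-4.33, adjusted p 0.00708) and Blk (-1.76, adjusted p 0.00398) were lower in UTR (8.26%) and 0 higher (9.89%). Then 5 of 36 were lower in YFP+ cells (12.6%) and 0 higher (14.5%), while Icos and Klrk1 were no longer called in the comparison with all YFP+ groups (adjusted p 0.0576 and 0.0599).

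Other lymphocyte genes, from lists of genes outside the 36, were set beside these. Of 23 other T cell genes, 0 were called in UTR against YFP- cells by limma, 1 had an unadjusted p under 0.05, and the median difference was -1.33. Trac, the constant region of the receptor alpha chain, read 5.24, 5.07 and 5.30 on the CDE arrays, 4.92, 4.85 and 4.85 on the DDC arrays, 4.61 and 5.30 on the UTR arrays and 7.19, 12.88 and 6.96 on YFP- replicates 1, 2 and 3. Of 19 other B cell genes, 7 were lower in UTR and 0 higher, and of 29 other NK and cytotoxic genes, 3 were lower and 1 higher. Over all genes in this comparison, 8.46% were lower and 10.4% higher, so the NK and cytotoxic list did not stand out clearly. On YFP- replicate 3, 7 of the 19 other B cell genes were over 3 units above the UTR mean (2.41% of all genes). There, 0 of the 23 other T cell genes and 2 of the 29 other NK and cytotoxic genes were. Antigen receptor signalling genes, many of them active in myeloid cells too, were lower in UTR for 15 of 23, with a median of -2.98. Ptprc (CD45), the phosphatase on nearly all blood cells, read 8.75, 11.34 and 10.75 on the YFP- arrays against 4.51 to 5.51 on YFP+ arrays, and differed by -5.35 ± 0.65 between UTR and YFP- cells (adjusted p 0.000629). Ptprc was thus high on all 3 YFP- arrays, whereas Cd3d, Cd3e and Cd3g were more than 1 unit above the UTR mean on replicate 2 alone. Cd3g still had all 3 YFP- arrays above every YFP+ array, by a gap of 0.22. Trac did so too, as the 1 gene of the 23 other T cell genes, against 11.7% of all genes.

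Marker lists of other cells peaked on different YFP- arrays. The mean level of 13 neutrophil and monocyte genes was 6.68, 9.50 and 5.99 on YFP- replicates 1, 2 and 3, and 4.48 to 5.11 on YFP+ arrays, so it too was highest on replicate 2. S100a8, a neutrophil protein, read 9.63, 12.33 and 8.10. The 13 macrophage and Kupffer cell genes averaged 8.79, 8.58 and 11.58, highest on replicate 3, with 5.53 to 6.91 on YFP+ arrays. The 12 endothelial genes averaged 11.27, 9.57 and 9.92, highest on replicate 1, with 5.14 to 5.71 on YFP+ arrays, and the 10 dendritic cell genes 6.53, 8.50 and 6.73. The 7 erythroid and platelet genes averaged 5.22, 6.68 and 6.19, and the 8 plasma cell genes 6.31, 7.78 and 6.26. These last 3 lists were highest on replicate 2. On the same scale the T cell members averaged 5.06, 9.45 and 5.16, the B cell members 5.08, 8.92 and 5.40, and the NK cell members 4.87, 9.33 and 5.48. The 8 biliary genes averaged 7.92, 5.16 and 4.75, against 10.05 to 10.36 on YFP+ arrays. The part of these cells in the values of Icos, Cd79b, Klrk1 or Thy1 was not tested.

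**Figure D4:**
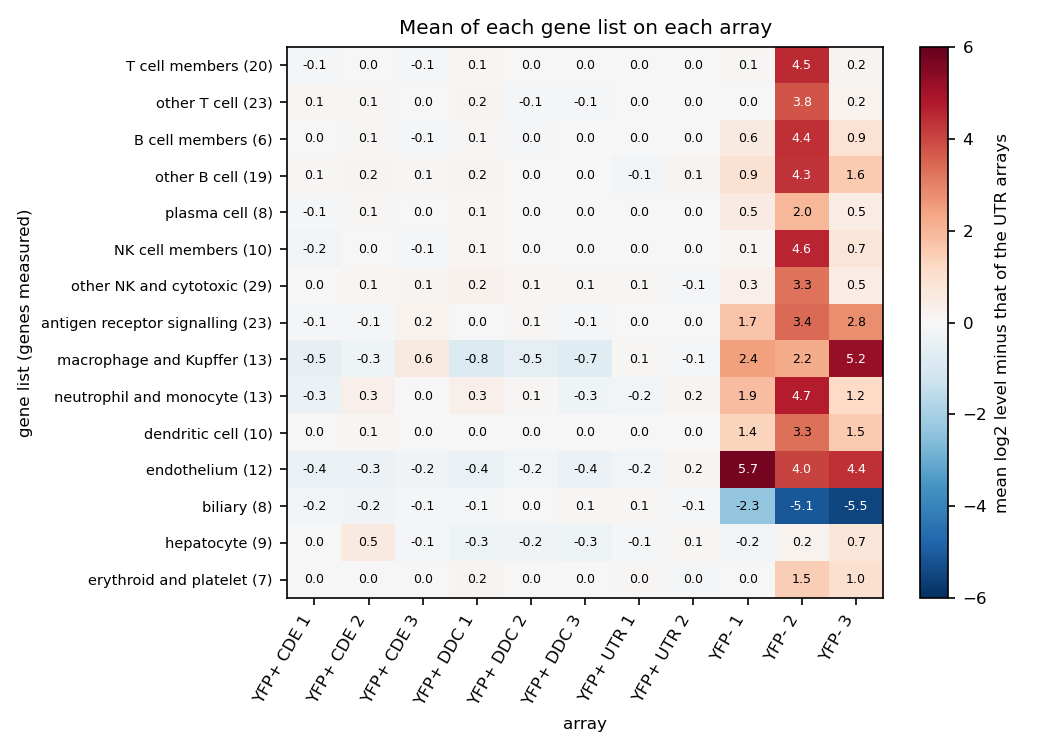
Mean log2 level of each marker list minus its UTR mean, on each array, for the lymphocyte classes and for other liver and blood cells. Of the 3 YFP- arrays, replicate 2 is highest for T, B and NK cell genes and for neutrophil and monocyte genes. It is also highest for dendritic cell, plasma cell, antigen receptor signalling and erythroid and platelet genes. Replicate 3 is highest for macrophage and hepatocyte genes, and replicate 1 for endothelial and biliary genes.

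Within the YFP+ arrays, 26 of the 36 genes lay under the array's own median on all 8, as did 10380 of all 23185 genes, and 9 lay under the lower quartile on all 8, as did 4468 of all genes. Cd247, Lat, Ccr7, Prf1 and Klrb1c lay above the median on all 8. The deposited table has no detection calls, so no gene can be called absent. The median range over the 8 arrays was 0.49 for the members and 0.53 over all genes.

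The diet comparisons asked whether injury changed the labelled cells, and none of the 36 members was called in any of them. Trbc2, a T cell gene outside the 36, is described under the other observations below. In the limma fit of all 11 arrays, 0 of 36 were called for CDE against UTR (0% of all genes), 0 for DDC against UTR (0%) and 0 for DDC against CDE (0.00431%), with 0 members at an unadjusted p under 0.05 in each, against 598, 1082 and 1792 of all genes. That fit shares the wide YFP- spread, and its 95% intervals reached from -3.84 to 3.82. In a limma fit of the 8 YFP+ arrays the counts were again 0 (0%, 0.16% and 1.16% of all genes), and an unadjusted p was under 0.05 for 1, 1 and 2 members, and for 1492, 2417 and 3555 of all 23185 genes. In these 8 arrays, for CDE against UTR, the differences ran from -0.35 (Thy1) to 0.32 (Cd8a), with 95% intervals within -0.75 to 0.74. For DDC against UTR they ran from -0.32 (Thy1) to 0.31 (Cd2), with intervals within -0.72 to 0.70, and for DDC against CDE from -0.18 to 0.39, within -0.49 to 0.77. In these 8 arrays no member's interval reached a change of 1 log2 unit. The comparisons with UTR share the 2 UTR arrays.

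Among the members, the largest diet difference was in Icos between the diets. Its values, given above, were 5.26 to 5.50 on CDE, 5.69 to 5.82 on DDC and 5.59 to 5.68 on UTR arrays, so the diets did not overlap. The difference was 0.39 ± 0.10 in the 8 arrays (adjusted p 0.109, 95% interval 0.17 to 0.61), a change of a low value that did not pass. Cd5 differed by 0.32 ± 0.13 between the diets (adjusted p 0.300) and Cd2 by 0.31 ± 0.11 between DDC and UTR (adjusted p 0.369). In either diet, no member's mean lay further than 0.35 from its UTR mean.

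**Figure D5:**
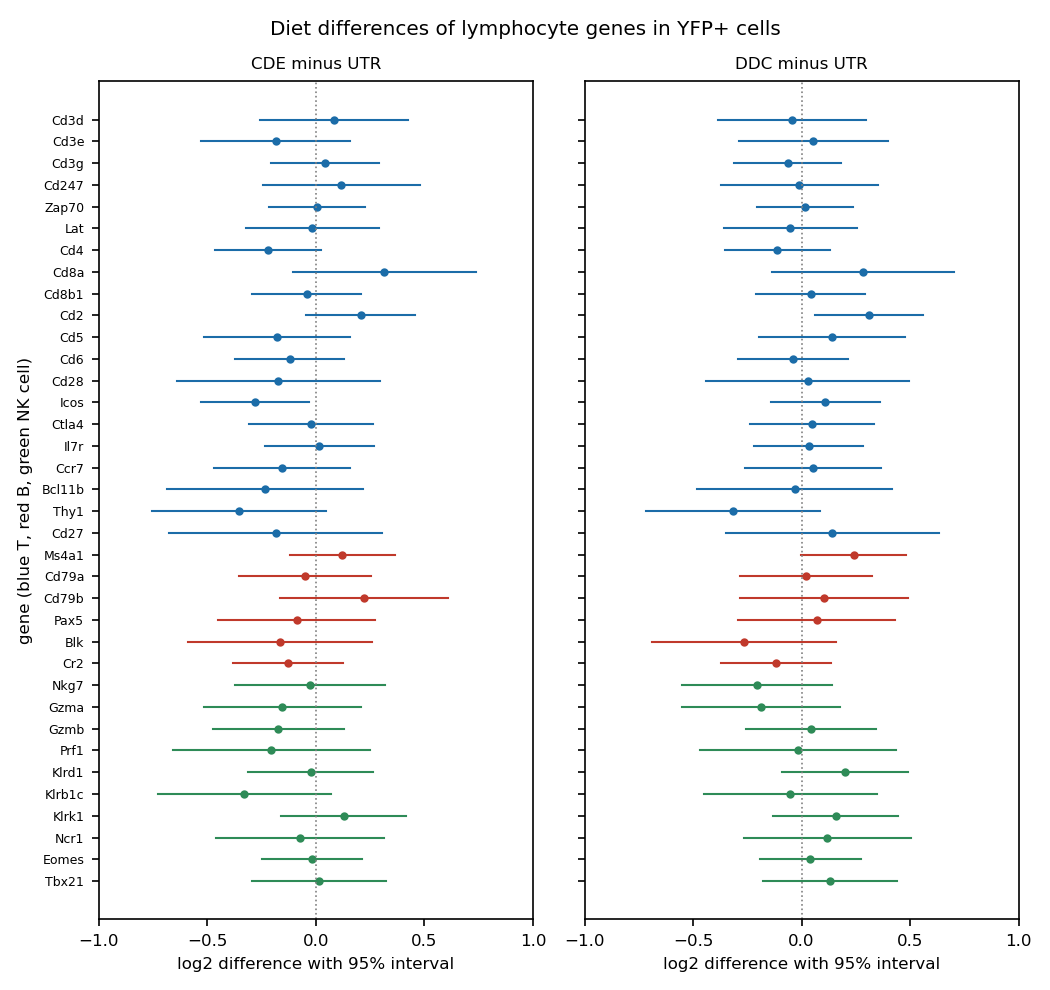
Log2 differences of the 36 genes (rows, coloured by class) for CDE minus UTR and for DDC minus UTR in the 8 YFP+ arrays, 1 point per gene, with 95% intervals as lines. All points lie between -0.35 and 0.32, and none passed an adjusted p of 0.05.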

How the data were processed

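Expression was measured on 11 MoGene ST 2.0 arrays. The values are log2 values deposited by the authors in one table of 25206 features; the base is inferred from their range (2.55 to 13.57), and how background was corrected and how probes were normalized and summarised is not given in the sources used here. Gene symbols came from the platform annotation. The 23185 features with exactly 1 symbol were kept, and all 23185 matched RefSeq. The other 2021 features had no symbol or more than 1. Groups came from the sample labels. The number of arrays limits the precision.

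One mean per group was estimated in R 4.3.3 with limma 3.58.1 (functions lmFit and eBayes, two-sided, Benjamini-Hochberg over all 23185 genes, threshold 0.05) on all 11 arrays, leaving 7 residual degrees of freedom, and on the 8 YFP+ arrays for the diets. No value was imputed and no array dropped. The deposited values held exact repeats. An identical value on more than 1 array occurred in 14 of the 36 members (38.9%) and in 33.9% of all genes. Gzmb had the same value, 3.91, on both UTR arrays and on YFP- replicates 1 and 3. The SD over the UTR arrays was 0 for Cd3e, Gzmb and Cr2. How these repeats arose is not given in the sources used here, and repeated values may not be independent readings. The fit was tested on simulated data with the same spread on all 11 arrays of a gene. That simulation did not include the wider YFP- spread, so it does not show how the fit performs under it. All members are reported; from other lists, up to 3 genes with the largest difference among those called in UTR against YFP- cells, or 2 where none was, and fixed markers may be named. The members, lists and tests were chosen with earlier results of these data known. Promoters came from RefSeq (GRCm38.p6). The labels do not say whether replicate numbers pair samples. Same-numbered arrays of different groups had deviations from their group means correlated at -0.07 to 0.13, and differently numbered arrays at -0.15 to 0.15. With so few arrays per group, these correlations cannot show whether samples were paired.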

Additional observations from a re-analysis of the deposited data

Results flagged for a closer look

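Icos lay below the UTR mean on all 3 CDE arrays and above it on all 3 DDC arrays, and the diets differed by 0.391 log2 units. The difference from UTR was -0.28 for CDE and 0.11 for DDC. The limma test of the difference between the diets gave an adjusted p of 0.109 in the 8 YFP+ arrays and 1 in the 11.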

How the results depend on the processing

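UTR against YFP- cells called 1 of 36 genes, 3 with array weights, 0 at an adjusted p of 0.01, 0 in the 5 UTR and YFP- arrays and 0 to 4 when single arrays were left out. By class, T cell calls (0) became 1 with array weights and 0 to 1 without single arrays. B cell calls (1) became 0 at 0.01, 0 in the 5 arrays and 0 to 1 without single arrays. NK cell calls (0) became 1 with array weights and 0 to 2 without single arrays. All YFP+ groups against YFP- called 6, 1 at 0.01 and 4 to 11 without single arrays. Of these, T cell calls (2) became 1 with array weights, 0 at 0.01 and 1 to 4 without single arrays. B cell calls (2) became 1 at 0.01. NK cell calls (2) became 1 with quantile normalization, 0 at 0.01 and 1 to 5 without single arrays. The 8 genes without overlap became 8 to 14 without single arrays, a count that can only stay or rise when an array is left out. Diet calls were 0 throughout. Cd6, not called in all 11 arrays, turned and was called without YFP- replicate 2 (limma adjusted p 0.0368 for UTR and 0.0182 for all YFP+ groups, each minus YFP-). Without single arrays it ranged from -1.28 to 0.43 for UTR and from -1.33 to 0.38 for all YFP+ groups. No other member was called with a changed sign under any setting. With the replicate number as a block the counts were 1, 6 and 0, but the 1 gene called in UTR against YFP- cells was then Blk (-1.50, limma adjusted p 0.0370), and Cd79b was no longer called (0.0574). Whether the numbers pair the samples is not given in the labels. The cause of these changes was not tested, beyond fewer arrays in some fits. With 3 unlike YFP- arrays, a gene high on 1 of them has a wide error.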

Other observations

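Igkc, the kappa light chain constant region, read 6.20, 4.70 and 5.73 on the CDE arrays, 5.07, 5.25 and 4.70 on the DDC arrays, 5.14 and 5.09 on the UTR arrays and 11.68, 12.98 and 8.81 on YFP- replicates 1, 2 and 3. All 3 YFP- arrays were above every YFP+ array, and UTR differed from YFP- by -6.04 ± 0.98 (limma adjusted p 0.00272). Ighm, the IgM heavy chain, had 8.30, 12.14 and 8.40 on the YFP- arrays against 5.29 to 6.20 on YFP+ arrays.

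Trbc2, a constant region of the T cell receptor beta chain, read 7.84, 7.71 and 8.29 on the CDE arrays, 8.64, 8.66 and 8.38 on the DDC arrays, 7.07 and 7.19 on the UTR arrays and 8.01, 13.37 and 8.06 on YFP- replicates 1, 2 and 3. The 6 diet arrays were above both UTR arrays. In the 8 YFP+ arrays DDC exceeded UTR by 1.43 ± 0.18 (limma adjusted p 0.0308), and CDE by 0.82 ± 0.18 (adjusted p 0.493). In the fit of 11 arrays the DDC difference had an adjusted p of 1. Trac and the CD3 genes did not show this order. The neighbouring copy Trbc1 is nearly identical in sequence, so signal of the 2 genes may be mixed. Trbc1 did not show this order either. It read 6.95, 6.93 and 6.47 on the CDE arrays, 7.47, 7.10 and 6.80 on the DDC arrays and 6.84 and 6.69 on the UTR arrays. On the YFP- arrays it read 7.27, 12.71 and 7.32.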
